A study of Homo sapiens with 12 samples.

Results

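The comparison described here is that of ephrin-B1 siRNA with a negative control siRNA in HMC3 cells that received no EphB2. It rests on 6 of the 12 libraries of the study, chosen by their labels alone: the 3 libraries with ephrin-B1 siRNA under Ctrl-Fc, named ephrin-B1 siRNA below, and the 3 libraries with negative control siRNA under Ctrl-Fc, named Ctrl. HMC3 is an immortalized human cell line labelled as microglia, and all groups come from this 1 line. Cells were transfected with either siRNA for 48 h and then treated for 24 h with a control Fc protein at 2 ug/mL, which had been pre-clustered for 1 h with goat anti-human IgG, so both groups carry a siRNA, the transfection reagent and the clustered Fc. The other 6 libraries received the same siRNAs and the extracellular part of EphB2 fused to Fc, again for 24 h at 2 ug/mL, and are named EphB2 + ephrin-B1 siRNA and EphB2. Ribosomal RNA was depleted from total RNA before sequencing. Replicates 1, 2 and 3 of every group carry the experiment numbers 2, 3 and 5 in the submitted files, and the study describes independent experiments. The question addressed was how the transcriptome differs between cells with ephrin-B1 siRNA and with negative control siRNA in the absence of added EphB2.

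Ephrin-B1, encoded by EFNB1, is a transmembrane ligand of the EphB receptors. When an Eph receptor on a cell binds an ephrin-B on its neighbour, signals run in both directions, forward through the kinase of the receptor and in reverse through the short cytoplasmic tail of the ephrin, which recruits adaptors and GTPase regulators. In the brain this contact guides axons and shapes synapses, and ephrins are also found on glia and immune cells. A siRNA guides the RNA interference machinery to a matching transcript, and short matches of the guide's seed to the 3′ ends of other mRNAs are a known source of additional changes.

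The 3 ephrin-B1 siRNA libraries held between 18271683 and 21487621 estimated counts, and the 3 Ctrl libraries between 13810195 and 21035350. Experiments differed: the deviations of same-numbered libraries from their group means correlated at r = 0.589 to 0.688 for replicate 1 and 0.626 to 0.660 for replicate 2, but at only 0.018 to 0.181 for replicate 3. Replicate 3 lay between replicates 1 and 2 in 94.0% of the 1054 genes that differed at least 2-fold between those replicates with ephrin-B1 siRNA, and in 92.3% of 1112 such genes in Ctrl. The total counts of called genes are therefore also given without replicate 3. The defining markers of microglia were at or near 0: AIF1 and C1QB had 0 counts over the 12 libraries, TYROBP had 2 and CX3CR1 had 3, while TMEM119, P2RY12, SPI1, PTPRC and TREM2 stayed under 1 CPM (TMM-scaled counts per 1000000 counts). Only 16 of 24 microglia and macrophage markers had enough counts to be tested. None was called by edgeR without the block or by DESeq2 (3 at an unadjusted p under 0.05). With the experiment number as a block 1 rose and 1 fell, and none did in the blocked test without replicate 3. These blocked shares, 6.2% each, were near the 6.51% rises and 7.06% falls of all genes. The lysosomal marker CD68 was at 24.4, 27.5 and 27.9 CPM with ephrin-B1 siRNA and 20.3, 28.4 and 24.6 CPM in Ctrl, with overlap. Fibroblast and mesenchymal markers, of which 13 of 14 were tested and none called by edgeR without the block or by DESeq2 (3 at an unadjusted p under 0.05), summed to 11464 to 17044 CPM with ephrin-B1 siRNA and 12888 to 23286 CPM in Ctrl. With the block 4 of them fell (THY1, FN1, VIM and COL1A1, 30.8% of the list, against 7.06% of all genes), 2 members fell in the blocked test without replicate 3, and their part in the results below was not tested. In bulk libraries, fewer cells of a kind and less RNA per cell cannot be told apart.

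The targeted transcript was lower in every ephrin-B1 siRNA library. EFNB1 was at 7.10, 6.60 and 8.70 CPM with ephrin-B1 siRNA, against 20.4, 17.5 and 19.3 CPM in Ctrl. The groups did not overlap, and within experiments 2, 3 and 5 the log2 ratios were −1.51, −1.39 and −1.14. The fitted log2 fold change was −1.35 ± 0.129 (SE, n = 3 each, adjusted p = 0.00124), the mean of the ephrin-B1 siRNA libraries was 39.1% of the Ctrl mean, and the call held when any 1 of the 6 libraries was omitted (highest adjusted p 0.0128). It was lost without replicate 3 in every group (adjusted p = 0.745) and in limma on the TPM scale (0.325), where its log2 fold changes were −1.47 and −0.95. These levels rest on few reads, with 135, 113 and 181 estimated counts with ephrin-B1 siRNA and 273, 338 and 370 in Ctrl, all assigned to 1 transcript of 3303 bases. Per length, EFNB1 was at 3.17 ± 0.723 TPM with ephrin-B1 siRNA and 7.05 ± 1.23 TPM in Ctrl (SD, n = 3 each).

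The other ephrin-B ligands remained at levels whose groups overlapped. EFNB2 was at 40.0, 42.3 and 43.0 CPM with ephrin-B1 siRNA and 51.1, 41.4 and 40.8 CPM in Ctrl (log2 fold change −0.09 ± 0.239, SE), and EFNB3 was at 20.2, 23.4 and 22.7 CPM against 22.2, 25.4 and 24.5 CPM in Ctrl (−0.12 ± 0.0926). On the per-length scale, EFNB2 averaged 11.5 TPM with ephrin-B1 siRNA and EFNB3 averaged 9.57 TPM, both above EFNB1 in the same cells. Of the 5 ephrin-A ligands tested, all had log2 fold changes between −0.59 and −0.05 and none was called, although EFNA2 (−0.59) passed with the experiment number as a block (adjusted p = 0.0342). Among the EphB receptors, EPHB4 was the most abundant at 66.2 ± 13.7 TPM with ephrin-B1 siRNA and 53.2 ± 8.09 TPM in Ctrl, and its log2 fold change on the count scale was 0.07. EPHB2, the receptor whose Fc fusion the study used, was at 46.4, 47.7 and 52.1 CPM with ephrin-B1 siRNA and 59.5, 73.4 and 65.9 CPM in Ctrl. These groups did not overlap, and EPHB2 fell by 0.44 on the log2 scale (adjusted p = 0.0307). In TPM the EPHB2 groups did overlap, with 24.1, 14.8 and 20.3 with ephrin-B1 siRNA and 22.1, 23.1 and 18.2 in Ctrl, and the call was lost with an offset for transcript length (adjusted p = 0.449) and on omission of Ctrl replicate 2 (0.129). It was called in only 1 of the 6 omissions of a single library. EPHA2, the most abundant Eph receptor, averaged 123 ± 37.4 TPM with ephrin-B1 siRNA and 107 ± 29.3 TPM in Ctrl, with a log2 fold change of −0.07 on the count scale. None of the other 11 Eph receptors was called.

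**Figure D1:**
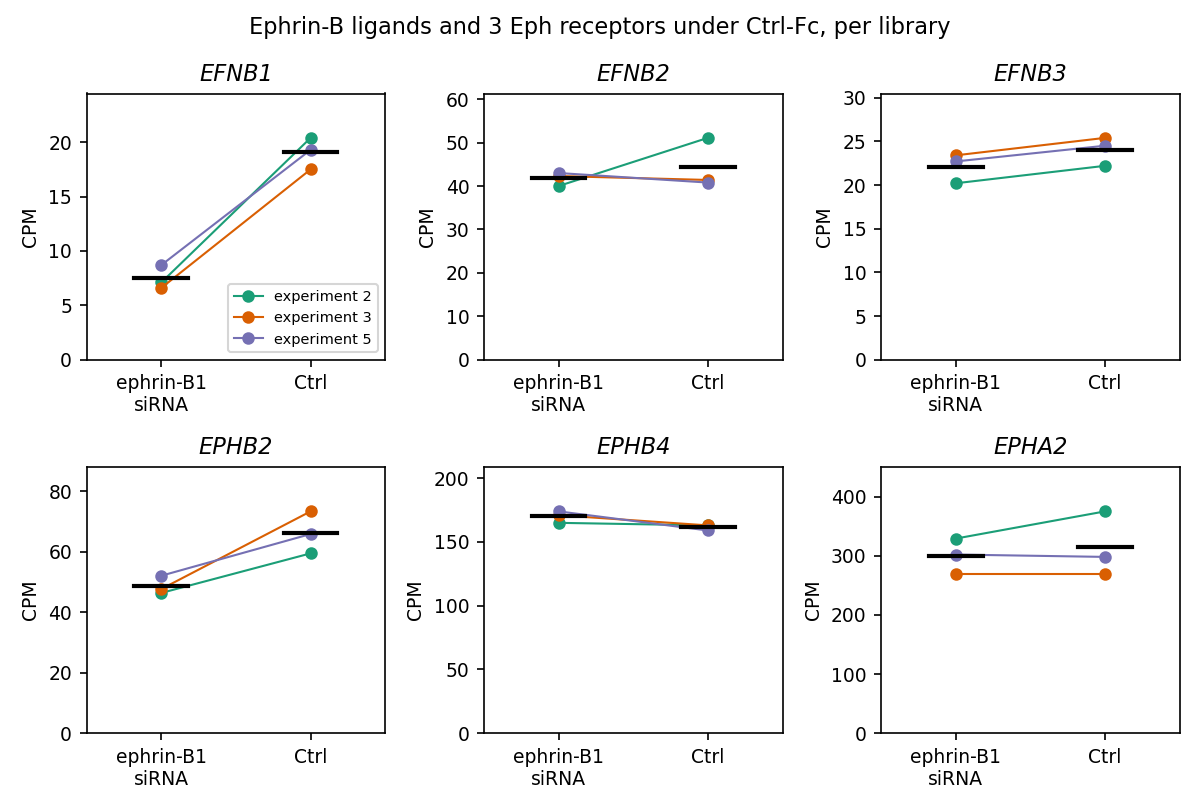
Levels (CPM, from 0) of the 3 ephrin-B ligands and of 3 Eph receptors in each library under Ctrl-Fc, ephrin-B1 siRNA left and Ctrl right, with libraries of the same experiment joined and a bar at the group mean. EFNB1 was lower with ephrin-B1 siRNA in all 3 experiments (7.47 against 19.1 CPM on average), EPHB2 was lower by less (48.8 against 66.3 CPM), and the other 4 genes lay close together or overlapped.

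Across the transcriptome, 391 of 21601 genes tested (1.81%) passed an adjusted p of 0.05, of which 142 rose with ephrin-B1 siRNA (0.657%) and 249 fell (1.15%). The changes were small: the median log2 fold change was 0.42 for the rises and −0.53 for the falls, and only 9 rises and 17 falls exceeded 2-fold. Almost all were protein-coding (388 genes). With the experiment number as a block, 2932 genes passed (13.6%), 1407 of them rises (6.51%) and 1525 falls (7.06%), and all 391 were among these. Shares of gene lists are set against all 21601 genes, which include genes under 1 CPM. For list counts without the block these shares are 0.657% rises and 1.15% falls. Among the 13406 genes of at least 1 CPM with a 3′ UTR examined below, the blocked shares were higher, at 10.38% rises and 11.08% falls. Rises were 36.3% of the calls without the block, 48.0% with it and 46.4% of the 1006 calls of DESeq2. The count depended on single libraries: it was 237, 125 and 76 without ephrin-B1 siRNA replicates 1, 2 and 3, and 289, 94 and 85 without Ctrl replicates 1, 2 and 3. Of the 391 genes, 70 were called in all 6 of these omissions, as were 27 of the 92 called genes named below or on the gene lists. Of these 92, 55 lost the call with an offset for transcript length and 9 with the offset and the block together. Without replicate 3 in every group no gene passed in the edgeR test (891 at an unadjusted p under 0.05). The blocked test without replicate 3 called 854 of 21598 genes, among them 341 of the 391 (87.2%). Of these 854 genes, 297 rose and 557 fell. With the block and the length offset 513 of 21601 genes rose and 614 fell. List counts in these 2 settings stand beside these totals, not beside the shares of the full blocked test.

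Enzymes of the membrane, the Golgi and mitochondria and several receptors were among the 15 largest falls, and 3 genes had a larger fitted fall than EFNB1 itself (SGMS2, FAM20C and CDH16). SGMS2, a sphingomyelin synthase of the plasma membrane, was at 19.2, 16.7 and 16.4 CPM with ephrin-B1 siRNA and 43.7, 53.9 and 49.1 CPM in Ctrl, with no overlap (log2 fold change −1.49 ± 0.117, SE, adjusted p = 0.000995). FAM20C, a Golgi kinase that phosphorylates secreted proteins, was at 7.26, 5.84 and 5.05 CPM against 16.9, 14.8 and 17 CPM in Ctrl (−1.42 ± 0.151, adjusted p = 0.00159). ACADS, a mitochondrial enzyme of short-chain fatty acid oxidation, was at 6.73, 6.84 and 8.46 CPM against 17.7, 15.7 and 17.5 CPM in Ctrl (−1.21, adjusted p = 0.00245). In each of these genes every ephrin-B1 siRNA library lay below every Ctrl library.

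Receptors followed. BMPR2, a type II receptor for bone morphogenetic proteins, was at 89.4, 54.5 and 69.4 CPM with ephrin-B1 siRNA and 176, 155 and 155 CPM in Ctrl (−1.19 ± 0.169, adjusted p = 0.00598). NRP2, a co-receptor for semaphorins and vascular endothelial growth factors, was at 17.7, 14.3 and 15.9 CPM against 26.2, 38.4 and 32.8 CPM in Ctrl (−1.03, adjusted p = 0.00587). The size of the NRP2 fall varied between experiments, with log2 ratios of −0.57, −1.42 and −1.04 in experiments 2, 3 and 5. SGMS2, FAM20C, EFNB1, ACADS, BMPR2 and NRP2 were called in all 6 omissions of a single library, and 5 of the 6 also with an offset for transcript length, in which FAM20C had an adjusted p of 0.0548.

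Of the remaining 9 of the 15 largest falls, none was called in all 6 omissions, and their highest adjusted p in an omission lay between 0.0644 and 0.199. They included ABTB3, an ankyrin repeat and BTB domain protein (5.21, 3.04 and 3.99 CPM with ephrin-B1 siRNA against 11.8, 10.1 and 8.99 CPM in Ctrl), which lost the call only without ephrin-B1 siRNA replicate 3 (adjusted p = 0.0644). AK4, an adenylate kinase of the mitochondrial matrix, was at 177, 105 and 134 CPM with ephrin-B1 siRNA and 332, 273 and 288 CPM in Ctrl (−1.10, adjusted p = 0.0162, and on omissions up to 0.0958, without ephrin-B1 siRNA replicate 3). Its near-identical processed pseudogene AK4P1 had a log2 fold change of −1.02, and how reads were split between the 2 is uncertain. The transcription factor NFIB (−1.16), the cation channel TRPM2 (−1.06), the kidney cadherin CDH16 (−1.41), MYEOV (−1.15), KIAA1755 (−1.22) and CNIH3, an auxiliary protein of AMPA receptors (−1.03), completed this group, most of them at levels under 10 CPM.

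A pair of more abundant genes fell by less, with little spread. CDC42, a small GTPase that organizes filopodia, was at 146, 124 and 136 CPM with ephrin-B1 siRNA and 252, 250 and 248 CPM in Ctrl (−0.89 ± 0.0888, SE, adjusted p = 0.00154). TXNRD1, the cytosolic thioredoxin reductase, was at 147, 128 and 137 CPM against 256, 280 and 270 CPM in Ctrl (−0.97, adjusted p = 0.00117). The mean was 1.85-fold lower for CDC42 and 1.96-fold lower for TXNRD1, without overlap, and both were called in all 6 omissions.

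The rises were led by LY6G5C, a small Ly6 family gene of the MHC region. It was at 2.00, 2.22 and 2.84 CPM with ephrin-B1 siRNA and 0.0749, 0.0516 and 0.209 CPM in Ctrl, and the fitted log2 fold change of 4.28 ± 0.600 (SE, adjusted p = 0.00562) rests on very few Ctrl counts. The difference was carried mainly by 1 noncoding transcript, with 30, 37.5 and 46.4 estimated counts with ephrin-B1 siRNA and 0 in each Ctrl library. Reads of this region can be shared between neighbouring or similar transcripts, so its level is uncertain, as is that of C4B (log2 fold change 1.33), which has a near-identical copy.

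DHRS2, a short-chain dehydrogenase, was at 9.94, 10.8 and 10.9 CPM with ephrin-B1 siRNA and 4.04, 3.36 and 4.13 CPM in Ctrl (1.46 ± 0.166, SE, adjusted p = 0.00240). SLC36A1, a lysosomal transporter of amino acids, was at 28.8, 31.0 and 31.6 CPM against 15.1, 16.1 and 13.5 CPM in Ctrl (1.03 ± 0.0973, adjusted p = 0.00124). Neither gene overlapped between groups. PTPMT1, a mitochondrial phosphatase of cardiolipin synthesis, was at 15.0, 16.3 and 17.5 CPM against 9.59, 8.0 and 8.47 CPM in Ctrl (0.91, adjusted p = 0.00264). MET, the receptor for hepatocyte growth factor and the most abundant of the 15 largest rises, was at 458, 518 and 483 CPM with ephrin-B1 siRNA and 310, 266 and 273 CPM in Ctrl (0.78 ± 0.0871, adjusted p = 0.00211). These 4 genes and LY6G5C held in all 6 omissions of a single library, whereas the other 10 of the 15 largest rises did not. With the offset for transcript length SLC36A1 had an adjusted p of 0.103, and 0.0120 with the offset and the block together. FBN1, which encodes fibrillin-1 of the extracellular matrix, was at 138, 108 and 118 CPM against 84.2, 66.5 and 68.7 CPM in Ctrl (0.73, adjusted p = 0.0203, and on omissions up to 0.116, without Ctrl replicate 3).

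**Figure D2:**
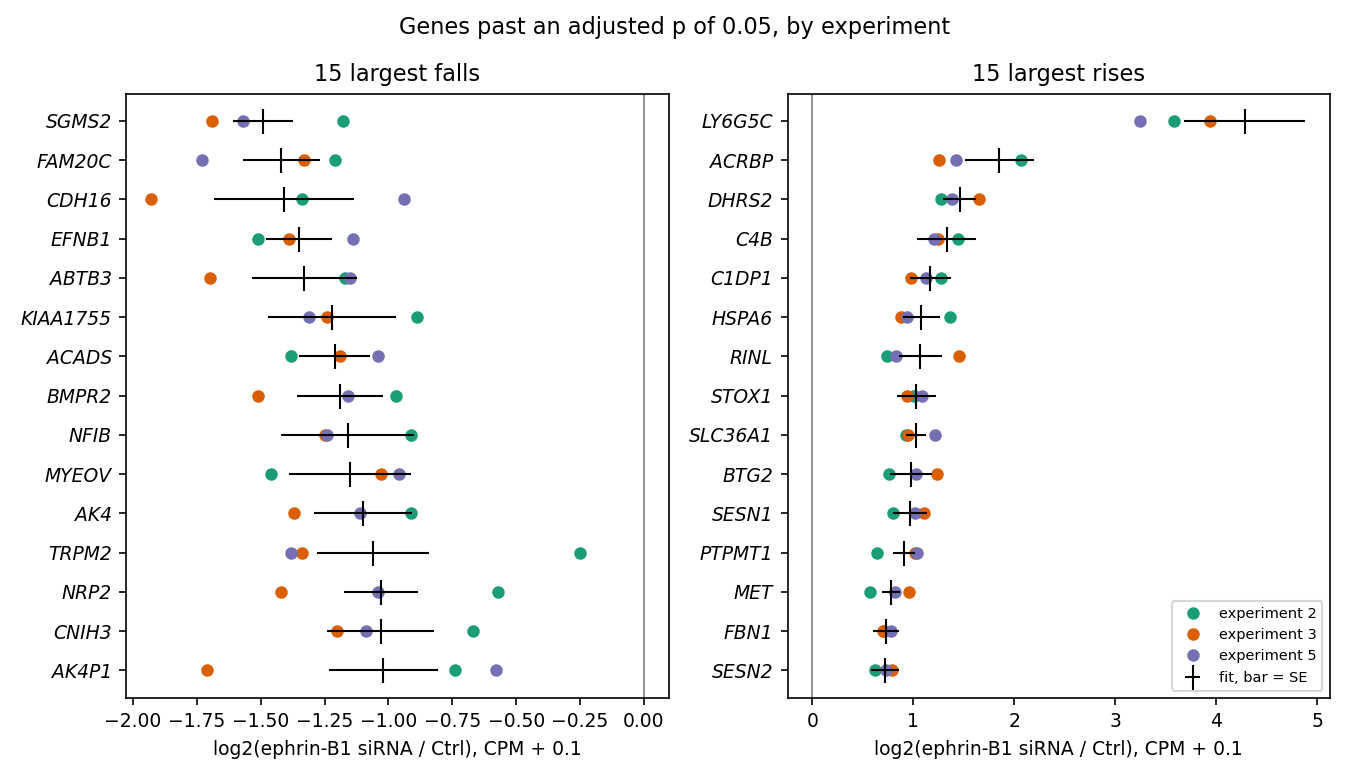
The 15 largest falls and 15 largest rises among genes past an adjusted p of 0.05, as log2 of the ephrin-B1 siRNA level over the Ctrl level of the same experiment (CPM + 0.1, coloured points), with the fitted fold change and its SE (black). All points lie on 1 side of 0, and experiments differ most for TRPM2, at −0.25 in experiment 2 and −1.34 and −1.38 in experiments 3 and 5.

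The gene lists were chosen with earlier results of these data known, so their shares beside those of all genes are description. Several p53 targets were higher with ephrin-B1 siRNA. Of 24 tested targets of p53, the transcription factor of the DNA damage response, 4 rose and none fell, against 0.657% and 1.15% of all genes, and the list's median log2 fold change was 0.24 beside −0.003 for all genes tested. With the block 14 rose and 1 fell (58.3% and 4.2% of the list, against 6.51% and 7.06% of all genes), and the rises were 6 with the block and without replicate 3 and 8 with the block and the length offset. CDKN1A, the cyclin-dependent kinase inhibitor p21, was at 497, 529 and 505 CPM with ephrin-B1 siRNA and 384, 282 and 309 CPM in Ctrl (0.65 ± 0.124, SE, adjusted p = 0.0259). BTG2, an antiproliferative factor, was at 74.1, 59.1 and 65.2 CPM against 43.8, 25.0 and 31.9 CPM in Ctrl (0.98, adjusted p = 0.0395). The groups did not overlap in either gene. The sestrins SESN1 (0.97) and SESN2 (0.72), inhibitors of mTORC1, were the other called members. Of these 4 calls, none was left without ephrin-B1 siRNA replicates 1 or 3 or without Ctrl replicates 2 or 3, while the list had 1 call without ephrin-B1 siRNA replicate 2 and 5 without Ctrl replicate 1.

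Genes of the unfolded protein response and targets of ATF4, which respond to stress of the endoplasmic reticulum and amino acid shortage, had a median of 0.18. Of 35 tested, 3 rose (the chaperone HYOU1, 0.37, the transcription factor DDIT3, 0.52, and SESN2) and 1 fell (the secreted hormone STC2, −0.46). Without the block 0.657% of all genes rose and 1.15% fell. With the block 15 rose and 2 fell (42.9% and 5.7%, against 6.51% and 7.06% of all genes), with 8 rises each when replicate 3 was left out and when the length offset was added. Of 44 mitosis genes 6 rose by 0.25 to 0.32 on the log2 scale and none fell, among them the kinesin KIF2C at 211, 222 and 218 CPM with ephrin-B1 siRNA and 166, 178 and 177 CPM in Ctrl. With the block 27 mitosis genes rose and 1 fell (61.4% and 2.3%), and the median of the list was 0.18. The blocked rises were 7 without replicate 3 and 9 with the length offset, beside 297 and 513 rises over all genes. The 41 genes of DNA replication had a median of −0.01, with 1 fall (RRM2, a subunit of ribonucleotide reductase, −0.33) and no rise without the block. Of these 41 genes, 9 fell and 3 rose with the block, against 7.06% and 6.51% of all genes. The blocked test gave 2 falls and no rise without replicate 3, and 3 falls and 1 rise with the length offset. The calls of the mitosis list were lost on omission of any single library except Ctrl replicate 1, which left 1, and those of the unfolded protein response list were down to 1 rise without ephrin-B1 siRNA replicate 1, 1 fall without ephrin-B1 siRNA replicate 2, and 0 without ephrin-B1 siRNA replicate 3 or Ctrl replicates 2 or 3.

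Interferon response genes had a positive median, and the unblocked test called 1 of them. Of 74 tested, 67 had a positive log2 fold change with a median of 0.27, but only STAT2, a transcription factor of the type I interferon pathway, was called. STAT2 was at 270, 308 and 290 CPM with ephrin-B1 siRNA and 227, 194 and 203 CPM in Ctrl (0.48 ± 0.0722, SE, adjusted p = 0.00890), with no overlap. Experiments differed by more than the siRNAs: the list's median log2 ratio of replicate 1 to replicate 2 was 0.73 with ephrin-B1 siRNA and 0.99 in Ctrl, and its median difference between siRNAs was 0.12, 0.54 and 0.29 in experiments 2, 3 and 5. MX1, an antiviral GTPase, was at 188, 64.3 and 121 CPM with ephrin-B1 siRNA and 163, 31.6 and 84.7 CPM in Ctrl, so the groups overlapped while each experiment was higher with ephrin-B1 siRNA. With the block 31 members rose and 1 fell (41.9% and 1.4%, against 6.51% and 7.06% of all genes). In the blocked test without replicate 3 the count was 3 rises and no fall, where 297 of 21598 genes rose. With the length offset it was 18 rises and 1 fall, where 513 of 21601 genes rose. The STAT2 call was lost without Ctrl replicates 2 or 3 or ephrin-B1 siRNA replicate 3, and 6 members were called without Ctrl replicate 1.

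Hypoxia and glycolysis genes formed the list with the most falls. Of 35 tested, 9 fell and 1 rose, against 1.15% and 0.657% of all genes, with a median of −0.25. With the block 21 fell and 1 rose (60.0% and 2.9%, against 7.06% and 6.51% of all genes), or 13 and 1 without replicate 3. NDRG1, a hypoxia-induced gene, was at 107, 95.7 and 95.4 CPM with ephrin-B1 siRNA and 158, 171 and 160 CPM in Ctrl (−0.71 ± 0.0657, SE, adjusted p = 0.00124, and 0.107 with the length offset). The glycolytic enzyme GAPDH, often used as a reference gene, was at 3060, 3130 and 3230 CPM against 4070, 4370 and 4240 CPM in Ctrl (−0.43, adjusted p = 0.0293, and not called in any omission, with up to 0.142 without Ctrl replicate 3). Every ephrin-B1 siRNA library lay below every Ctrl library in both genes. PFKFB4 (−0.58), TPI1 (−0.56), VEGFA (−0.55), PGAM1 (−0.45), PGK1 (−0.40), the lactate transporter SLC16A3 (−0.38) and ENO2 (−0.32) also fell, and SLC2A3, a glucose transporter, rose by 0.52. Omission of single libraries left 3 to 6 falls, with 3 without ephrin-B1 siRNA replicate 3 or Ctrl replicates 2 or 3, and SLC2A3 was called in all 6.

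The called genes of TGF-beta and BMP signalling were ligands, receptors and repressors. Of 36 tested, 6 fell and none rose (median −0.16), against 1.15% and 0.657% of all genes. With the block 15 fell and 3 rose (41.7% and 8.3%, against 7.06% and 6.51% of all genes). The activin subunit INHBA was at 55.2, 48.8 and 49.2 CPM with ephrin-B1 siRNA and 82.9, 113 and 100 CPM in Ctrl (−0.95 ± 0.127, SE, adjusted p = 0.00433). Besides BMPR2 the type II receptor TGFBR2 fell, at 76.8, 86.1 and 80.8 CPM against 117, 135 and 133 CPM in Ctrl (−0.66, adjusted p = 0.00742). No library of either gene overlapped with the other group. The activin subunit INHBB (−0.51) and the repressors SKIL (−0.67) and SKI (−0.50) were the other falls, of which SKI was at 0.01 on the TPM scale. BMPR2, SKIL and SKI hold the 3′ UTR word described below, and its part in their falls was not tested. The list had 2 falls without ephrin-B1 siRNA replicate 3, 3 without ephrin-B1 siRNA replicate 2 or Ctrl replicates 2 or 3, and 5 in the other omissions.

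Of 58 genes of collagens and matrix, 5 fell and 1, FBN1, rose (median −0.15), against 1.15% and 0.657% of all genes. Those that fell were the lysyl oxidases LOXL2, LOXL1 and LOXL3, which cross-link collagen, and the matrix proteins TGFBI and THBS2. LOXL2 was at 294, 329 and 315 CPM with ephrin-B1 siRNA and 475, 663 and 577 CPM in Ctrl (−0.87, adjusted p = 0.00890, and 0.0577 without ephrin-B1 siRNA replicate 3). With the block 18 of the list fell and 4 rose (31.0% and 6.9%, against 7.06% and 6.51% of all genes). The matrix proteases and inhibitors had a median of −0.20, with falls of MMP24 (−0.53), the plasminogen activator PLAU (−0.49) and the inhibitor TIMP2 (−0.34) among 31 tested, and with the block 11 fell and 1 rose (35.5% and 3.2%). None of these 3 calls was left without ephrin-B1 siRNA replicate 3 or Ctrl replicates 2 or 3, and 1 was left without ephrin-B1 siRNA replicate 2. In the matrix list 0 falls were left without ephrin-B1 siRNA replicate 3, 1 without Ctrl replicates 2 or 3, 2 without ephrin-B1 siRNA replicate 2 and 3 without ephrin-B1 siRNA replicate 1. Of 46 genes of Golgi glycosylation and secretory kinases, 5 fell and none rose (median −0.18), against 1.15% and 0.657% of all genes. The falls were FAM20C, the fucosyltransferases FUT8 (−0.70) and FUT11 (−0.32), the N-glycan branching enzyme MGAT5 (−0.48) and GALNT10 (−0.45). FUT8, which adds core fucose to N-glycans, was at 55.2, 48.8 and 49.7 CPM with ephrin-B1 siRNA and 81.8, 85.2 and 82.9 CPM in Ctrl (adjusted p = 0.00124). At least 4 of these 5 falls were called in each omission, and with the block 14 members fell and 2 rose (30.4% and 4.3%), with 8 falls each without replicate 3 and with the length offset. Of 34 genes of cholesterol and fatty acid synthesis, STARD4 (−0.56) and SCD (−0.40) fell and none rose (median −0.13), with 2 calls left without ephrin-B1 siRNA replicate 1 and 0 in the other 5 omissions. With the block 12 of them fell and none rose (35.3%, against 7.06% of all genes for falls). In the blocked test 3 fell without replicate 3, where 557 of 21598 genes fell. With the length offset 5 fell, where 614 of 21601 genes fell.

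Genes that carry ephrin-B reverse signals went both ways. Of 37 partners of reverse signalling 2 fell, CDC42 and the Rac exchange factor TIAM1 (84.5, 82.2 and 78.7 CPM with ephrin-B1 siRNA against 102, 105 and 102 CPM in Ctrl, −0.33), and the median was 0.03. For this and the next 2 lists, the unblocked shares of all genes were 1.15% falls and 0.657% rises. Under the block 6 rose and 8 fell (16.2% and 21.6%, against 6.51% and 7.06% of all genes), or 2 and 4 without replicate 3. Of 22 genes of ephrin and Eph shedding and endocytosis 3 fell and 1 rose (median −0.18). Those that fell were TIAM1, the Rab5 exchange factor RIN1 (−0.46) and APH1A, a subunit of the gamma-secretase that cleaves ephrin-B (−0.31), and the scaffold ITSN1 rose by 0.36, and with the block 10 fell and 3 rose (45.5% and 13.6%), or 6 and 3 without replicate 3. Among 46 axon guidance ligands and receptors, NRP2, NRP1 (−0.47), SEMA7A (−0.49) and SEMA4F (−0.48) fell and none rose (median −0.05, with 6 rises and 12 falls under the block, 13% and 26.1%, or 2 and 7 without replicate 3). NRP1, the other neuropilin, was at 69.0, 69.5 and 70.1 CPM with ephrin-B1 siRNA and 93.4, 99.6 and 95.3 CPM in Ctrl, with no overlap (adjusted p = 0.00410). NRP1, NRP2, SEMA7A and CDC42 were called in all 6 omissions, TIAM1, RIN1, ITSN1 and SEMA4F in 2 of them and APH1A in none. All 4 calls of the shedding list were lost without ephrin-B1 siRNA replicate 3 or Ctrl replicates 2 or 3.

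No member of the list of cytokines and chemokines or of the NF-kB list was called by the unblocked edgeR test. The lists do not cover all related genes: IRAK1 (−0.63, adjusted p = 0.0247) and SOCS3 (−0.66, adjusted p = 0.00159), on neither list, were called as falls in that test. Of 38 cytokines and chemokines tested the median was −0.19, 3 had an unadjusted p under 0.05, DESeq2 called 1 (LIF, lower), and with the block 5 fell (CCL2, CXCL1, IL1B, LIF and IL11, 13.2%, against 7.06% of all genes) and none rose, or 3 without replicate 3 and 1 with the length offset. IL1B was at 5.58, 2.69 and 4.76 CPM with ephrin-B1 siRNA and 8.24, 5.68 and 6.53 CPM in Ctrl, without overlap (log2 fold change −0.64, adjusted p = 0.415, and 0.00518 with the block). IL6 was at 4.47, 3.45 and 4.37 CPM against 4.64, 6.09 and 4.76 CPM in Ctrl (−0.33, adjusted p = 0.529). TNF had 0 counts and CXCL10 had 7 counts over the 12 libraries, so a difference in them was not detectable at this depth. The 37 genes of NF-kB subunits, feedback and targets had a median of −0.05, with 8 at an unadjusted p under 0.05, 2 falls in DESeq2 (RIPK2 and TNFAIP2), and 3 rises and 5 falls under the block (8.1% and 13.5%), or 1 and 1 without replicate 3.

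**Figure D3:**
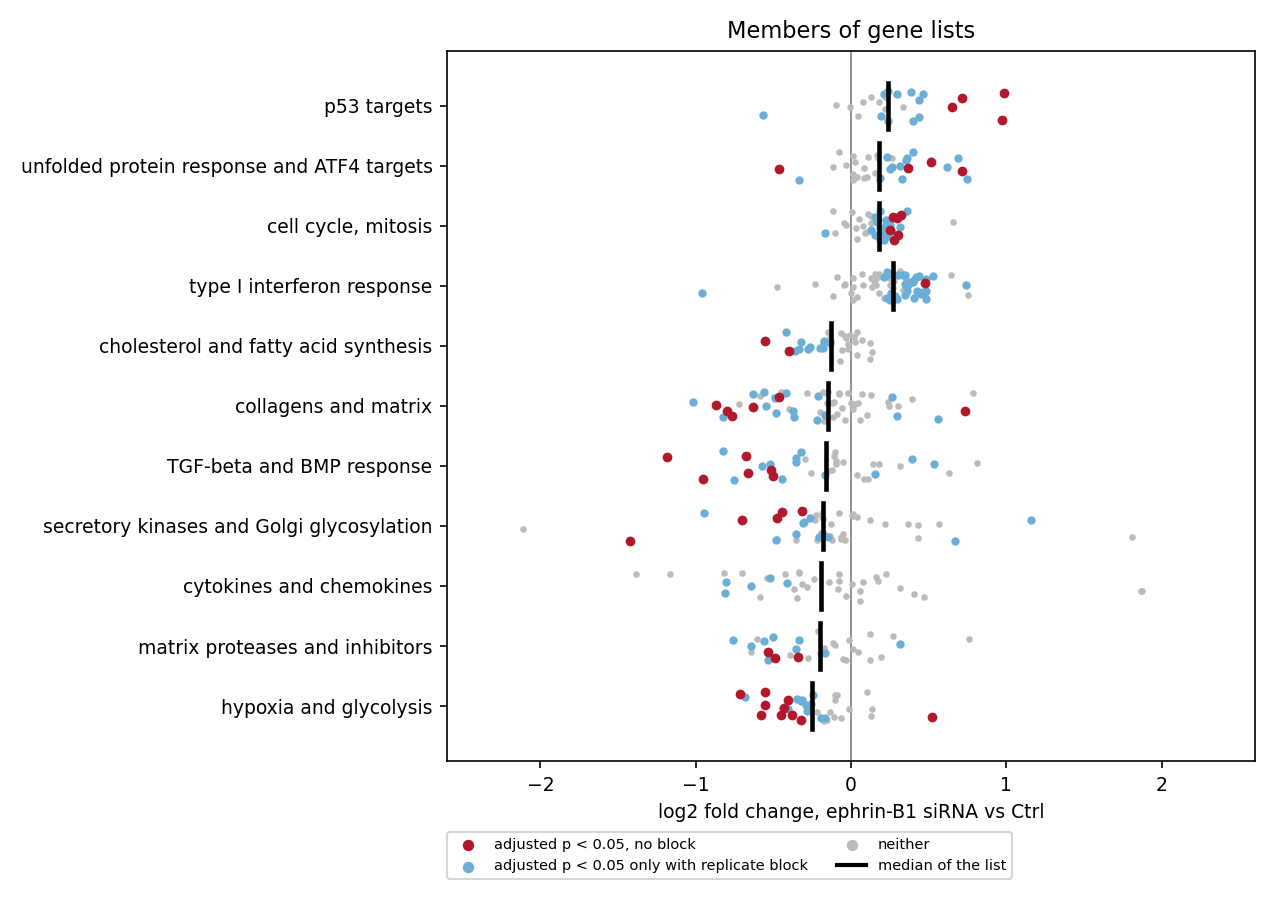
Log2 fold changes (ephrin-B1 siRNA vs Ctrl) of the members of 11 gene lists, with red points for genes past an adjusted p of 0.05 without the block, blue points for genes past it only with the experiment number as a block, grey points for the rest and a black bar at the list's median. Medians run from 0.27 (interferon) and 0.24 (p53 targets) to −0.25 (hypoxia and glycolysis), and 3 points of genes that were not called lie outside the axis.

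The same siRNA pair was also compared in the 6 libraries treated with EphB2-Fc, which are not among those above but come from the same experiments. EFNB1 was at 6.56, 6.03 and 6.38 CPM in EphB2 + ephrin-B1 siRNA and 15.6, 18.8 and 18.4 CPM in EphB2 (log2 fold change −1.47, adjusted p = 0.00189). Here 133 genes passed (0.616%), 45 of them rises (0.208%) and 88 falls (0.407%), and with the block 2146 passed (9.93%), with 979 rises (4.53%) and 1167 falls (5.4%). Of the 391 genes called under Ctrl-Fc, 115 were among them, which is 29.4% of the 391 and 86.5% of the 133. The sign was the same under EphB2-Fc for 248 of 249 falls and 140 of 142 rises, and over the 391 genes the log2 fold changes of the 2 comparisons had a Pearson correlation of 0.88 and a Spearman correlation of 0.93, with a median ratio of 0.77. Over all 14272 genes of at least 1 CPM, 74.4% had the same sign (Pearson 0.51, Spearman 0.61). These values are across genes, which are not independent replicates, and the experiments are shared. The 391 genes were also selected by their change under Ctrl-Fc. Their correlations and the ratio of 0.77 partly follow from that selection, so the ratio is no measure of a weaker effect under EphB2-Fc.

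The difference between the siRNA effects under the 2 Fc proteins was tested directly. No gene passed in the edgeR test (498 at an unadjusted p under 0.05), DESeq2 called 2 genes, and the blocked edgeR test called 1 (0.00463%), UPK1A, with a negative difference. SGMS2 was at 22.5, 17.1 and 19.9 CPM in EphB2 + ephrin-B1 siRNA and 46.9, 52.8 and 47.8 CPM in EphB2, so its log2 fold change was −1.30 there and −1.49 under Ctrl-Fc. FAM20C was at 8.09, 7.02 and 8.56 CPM in EphB2 + ephrin-B1 siRNA and 12.9, 10.7 and 12.4 CPM in EphB2 (−0.61, against −1.42 under Ctrl-Fc, with an adjusted p of 0.306 for the difference with the block). Both genes had negative log2 fold changes in both comparisons. LY6G5C and HSPA6, a stress-induced heat shock protein, were the leading rises without a counterpart. LY6G5C was at 2.55, 1.46 and 0.545 CPM in EphB2 + ephrin-B1 siRNA and 1.89, 1.33 and 1.66 CPM in EphB2, so that of the 4 groups only Ctrl was low, and the difference of effects had an adjusted p of 0.174 with the block. HSPA6 was at 5.19, 5.91 and 4.28 CPM in EphB2 + ephrin-B1 siRNA and 5.89, 4.17 and 5.72 CPM in EphB2, against 7.47, 6.55 and 6.20 CPM with ephrin-B1 siRNA and 2.85, 3.51 and 3.19 CPM in Ctrl (adjusted p for the difference 0.397 with the block).

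**Figure D4:**
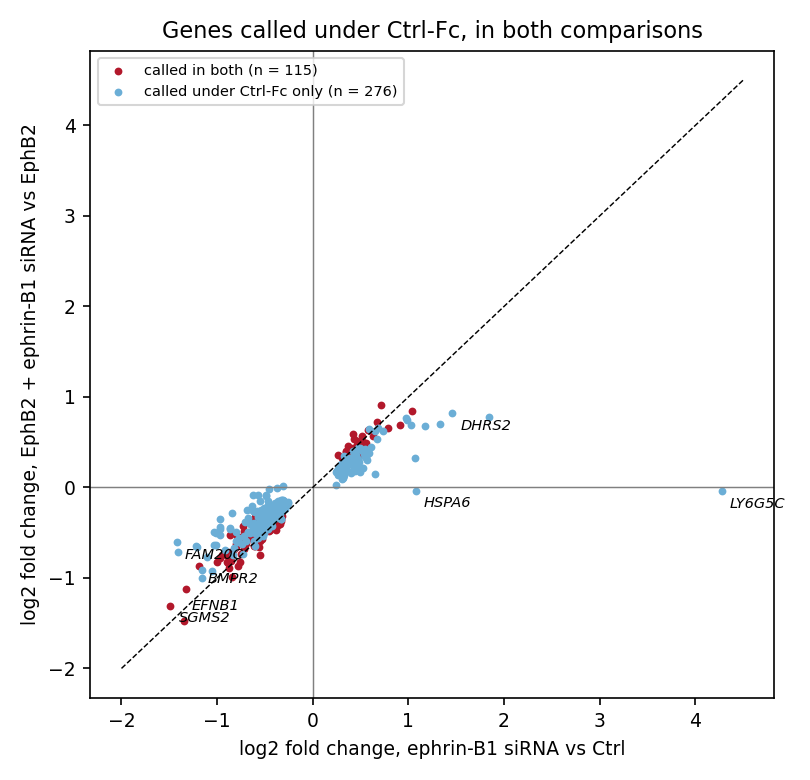
Log2 fold changes of the 391 genes called under Ctrl-Fc, in ephrin-B1 siRNA vs Ctrl (x axis) and in EphB2 + ephrin-B1 siRNA vs EphB2 (y axis), with a dashed line of equal change. Of these genes 115 were called in both (red) and 276 under Ctrl-Fc only (blue), most points lie in the quadrants of equal sign, and LY6G5C and HSPA6 lie near 0 on the y axis.

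The 3′ untranslated regions (UTRs) of the genes that fell shared a short sequence. Every word of 7 letters (16384 are possible) was counted on the sense strand of the 3′ UTR of 13406 genes, as a description with no test, since the words were chosen after the fold changes were known. The word GGACATC was in the 3′ UTR of 82 of the 247 falls with a 3′ UTR (33.2%), in 4 of 140 rises (2.9%) and in 770 of all 13406 genes (5.74%). It had the highest ratio of these shares among words held by at least 5% of the falls, and the next words in that order were AATTCGA (6.1% of falls and 1.46% of all genes) and GACATCA, which overlaps the first by 6 letters (34.4% and 8.31%). Under EphB2-Fc, GGACATC was in 41 of 87 falls (47.1%) and 1 of 44 rises (2.3%). EFNB1 holds the 8-letter form GGACATCA in its coding sequence and not in its 3′ UTR. The sequences around the word are shown for EFNB1 and for leading falls of different functions, in GRCh38 with the word in capitals. The identity of the match and the difference of the flanks can so be seen. Where a 3′ UTR holds 2 copies of the word, as in BMPR2 and AK4, only the first is shown. The 3′ UTR of BMPR2 also holds the 8-letter form GGACATCA, in the copy not shown.

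EFNB1 (coding, chrX:68838650-68838679, plus strand): gaaaattggagacaagctGGACATCAtctg
TXNRD1 (3′ UTR, chr12:104349710-104349739, plus strand): ttttgaacacgtgcttgtGGACATCAggcc
CNIH3 (3′ UTR, chr1:224740252-224740281, plus strand): ctgtttaggtcgacgtgaGGACATCAtctt
SGMS2 (3′ UTR, chr4:107910924-107910953, plus strand): tattttaaataaaatatctGGACATCtaca
BMPR2 (3′ UTR, chr2:202560404-202560433, plus strand): ctgaacatattatcttgttGGACATCtttt
CDC42 (3′ UTR, chr1:22091891-22091920, plus strand): cactctggagagtaatctgGGACATCttag
AK4 (3′ UTR, chr1:65226809-65226838, plus strand): tttttttctttttttttttGGACATCtgtt

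Fold changes were ordered by the length of the match. The word had been taken from the falls under Ctrl-Fc, so a lower median there in classes that hold it partly follows from that choice. The 274 genes with the 8 letters GGACATCA in the 3′ UTR had a median log2 fold change of −0.217 under Ctrl-Fc and 15.69% of them were called as falls. The median was −0.097 for 496 genes with GGACATC and no 8-letter match, −0.075 for 777 genes with GACATCA only, −0.028 for 1077 genes with only the 6 letters GACATC, and 0.018 for the 10782 genes without any of these. Under EphB2-Fc the medians in the same order were −0.203, −0.100, −0.069, −0.037 and 0.016. Genes with the word only in the coding sequence (2206) had a median of −0.030 under Ctrl-Fc. The classes also differed in the length of the 3′ UTR, with a median of 2968 bases for the 8-letter class and 777 bases for the class without a match, and the part of this length in the result was not tested. Not all leading falls hold the word: FAM20C and ACADS have it nowhere in the transcript examined, and INHBA, NRP2 and NDRG1 only in the coding sequence. Among unblocked falls of the gene lists, 3 of 6 of TGF-beta and BMP signalling hold it in the 3′ UTR. It is in 1 of 2 of reverse signalling, 1 of 9 of hypoxia and glycolysis and 1 of 5 of collagens and matrix. None of the 5 of Golgi glycosylation and secretory kinases holds it. The sequences of the ephrin-B1 and negative control siRNAs are not given in the sources used here, so whether the word matches the seed of either was not tested. Of 2370 mature human miRNA names in RefSeq (GRCh38.p14), 1 has the complementary seed (bases 2 to 8, in capitals), shown because that seed is the reverse complement of the word:

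hsa-miR-219b-5p (chr9:128392634-128392655, plus strand): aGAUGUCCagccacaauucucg

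The level of this miRNA was not measured in these libraries. Among the rises the word with the highest ratio was GACGTAA, which was in 12 of 140 rises (8.6%), none of 247 falls and 129 of all genes (0.96%), and under EphB2-Fc in 9 of 44 rises (20.5%). The 129 genes had a median log2 fold change of 0.094 under Ctrl-Fc and 0.075 under EphB2-Fc. The 140 genes with GACGTAA only in the coding sequence had similar medians, 0.077 and 0.076, so the pattern was not particular to the 3′ UTR. Among the 1391 rises called with the block, 2.6% held GACGTAA, and another word, GACAGTA, had the highest ratio (11.6% of these rises and 7.19% of all genes). No mature miRNA name in RefSeq has the seed complementary to GACGTAA. The word GACGTAA is shown in PTPMT1 and in MET, in both of which it occurs 1 time in the 3′ UTR.

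PTPMT1 (3′ UTR, chr11:47571701-47571730, plus strand): agggcttaagcccagacttGACGTAAcaga
MET (3′ UTR, chr7:116797580-116797609, plus strand): tactctaactggttttgtcGACGTAAacat

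**Figure D5:**
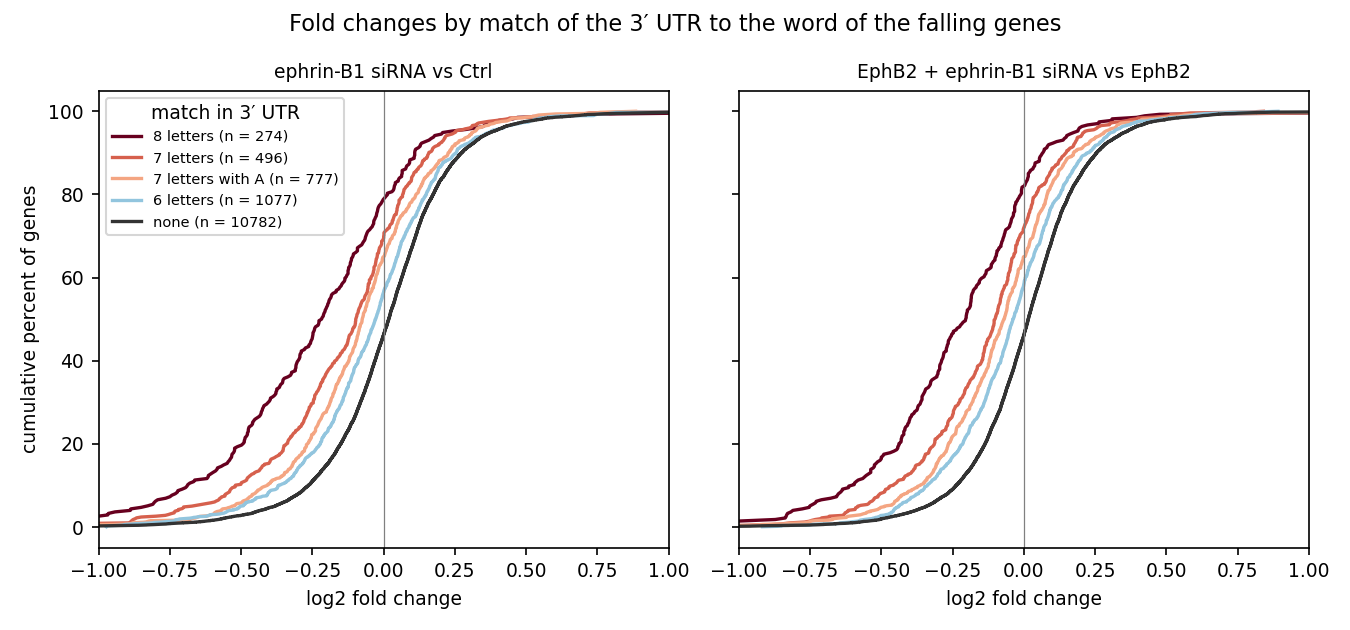
Cumulative percent of genes (y axis) by log2 fold change (x axis, drawn from −1 to 1) for classes of match of the 3′ UTR to GGACATCA, in ephrin-B1 siRNA vs Ctrl (left) and EphB2 + ephrin-B1 siRNA vs EphB2 (right). The curves are ordered by match length in both panels, with 78.8% of the 8-letter class and 46.3% of the class without a match below 0 under Ctrl-Fc. The word was taken from the falls of the left comparison, and both panels share the siRNAs and experiments.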

How the data were processed

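RNA of 12 HMC3 libraries (4 groups of 3) had been aligned by the authors to human cDNA sequences of GRCh38, from the Ensembl release that the paper's methods name, with kallisto, whose version is not given in the sources used here. The estimated counts are those the authors deposited per transcript, with no further normalization. The TPM values were deposited by the authors with them, from the same run. Of 188753 transcripts, 167067 (88.5%) were paired with 36315 genes of GENCODE 44; the 21686 others, with the rest of the counts (95.25% to 95.98% of a library was kept), were left out. The labels state a RIN above 9 and the paper a lower limit.

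The transcripts' estimated counts were added up for each gene, then rounded, and a gene needed 10 or more counts in all 12 libraries together to be tested (21601 genes). Tests used edgeR 4.0.16 and its quasi-likelihood method (TMM, 4 groups in 1 fit, no block, Benjamini-Hochberg over all genes, threshold 0.05). Every p without another name is from this test, and errors are its SE or the SD of 3 libraries. Only the experiment numbers separate the replicates of 1 cell line. The unblocked p-values set a group difference against the spread of libraries within groups, which includes differences between experiments. They leave the pairing by experiment number out. The blocked p-values use the spread that is left after differences between experiments are fitted. Same-numbered libraries share an experiment number in the submitted file names, and the correlations that bear on this are in the report. edgeR estimated a biological coefficient of variation of 0.182, or 0.0649 when experiments were blocked.

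Genes named are the ephrins and Eph receptors, the 15 largest rises and falls past the threshold (also under the block, if moved alike in 3 of 3 experiments), list members past a threshold or up to 4 with the smallest p, genes the paper names and cell type markers. The members and lists were chosen with earlier results of these data known. Alternatives were DESeq2 1.42.0, its size factors, other filters, only the groups compared, the block, an offset for transcript length, limma 3.58.1 on log2(TPM + 1) and omission of libraries. Words in 3′ UTRs were counted in the most abundant coding transcript of genes of at least 1 CPM, a step chosen after the data were seen. The fit was tested on simulated data. R 4.3.3, Python 3.11.15, numpy 2.4.6, pandas 2.3.3 and matplotlib 3.10.9 were used.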

Additional observations from a re-analysis of the deposited data

Results flagged for a closer look

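UPK1A, which encodes uroplakin 1A, was the only gene whose response to ephrin-B1 siRNA differed between the Fc proteins in the blocked edgeR test. It was at 3.84, 1.40 and 2.31 CPM with ephrin-B1 siRNA and 1.35, 1.39 and 1.20 CPM in Ctrl (log2 fold change 0.94, adjusted p = 0.422, and 0.0951 with the block). It was at 0 in all 3 EphB2 + ephrin-B1 siRNA libraries and at 3.20, 1.33 and 1.71 CPM in EphB2. The fitted difference of the effects was −9.14 on the log2 scale (adjusted p = 0.00359 with the block and 0.212 without it), a value that depends on the prior count because 1 group is at 0 and is no bound.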

How the results depend on the processing

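The number of genes called moved with the treatment of the experiments more than with the normalization. For ephrin-B1 siRNA vs Ctrl (391 genes) it was 2932 with the replicate block, 1006 with DESeq2, 86 with only the groups compared, 121 with the length offset and 0 with limma on log2(TPM + 1) (2135 at an unadjusted p under 0.05), and with the block 2430 in DESeq2, 3300 with only the groups compared and 1127 with the length offset. With the block and without replicate 1, 2 or 3 it was 2554, 1696 and 854, and without the block the omissions of a replicate number or a library gave 0 to 289. For EphB2 + ephrin-B1 siRNA vs EphB2 (133 genes) it was 2146 with the replicate block, 658 with DESeq2, 205 with filterByExpr, 0 with only the groups compared (1686 at an unadjusted p under 0.05), 21 with the length offset and 2 with limma, and with the block 1819 in DESeq2, 1714 with only the groups compared and 693 with the length offset. With the block and without replicate 1, 2 or 3 it was 1837, 1036 and 399, and other omissions gave 0 to 117. For the difference between the 2 comparisons (0 genes) it was 1 with the replicate block, 2 with DESeq2, 1 without a filter on low counts, 25 with the block in DESeq2, 1 with the block and the length offset, and 3, 13 and 6 with the block and without replicate 1, 2 or 3. The cause of these shifts was not tested. Rises were 19.8% of the calls with only the groups compared.

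EFNB1 kept its direction in every alternative, between −1.48 and −1.26 when replicates or libraries were omitted, at −0.95 in limma on TPM (adjusted p = 0.325) and at −1.47 without replicate 3 (0.745), the only ones in which it was not called. Of the other named genes, none lost its call under the block and 1 changed sign, SKI, at 0.01 in limma on TPM, where the median of all genes was 0.12. In that alternative the 8-letter class of the 3′ UTR word had a median of 0.014 and the class without a match 0.193. The medians of word classes under each alternative were computed after the data were seen, as were the list counts without single libraries. EFNB1 had 113 to 370 counts a library, which limits the precision of its fold, and genes with fewer counts are limited further.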

Other observations

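In 2 genes 1 library stood apart within its group under Ctrl-Fc. SOX9, a transcription factor of cartilage and astrocytes, was at 20.7, 1.11 and 22.6 CPM with ephrin-B1 siRNA and 39.8, 52.2 and 44.9 CPM in Ctrl, against 20, 28.5 and 24.4 CPM in EphB2 + ephrin-B1 siRNA and 35.2, 34.1 and 36.9 CPM in EphB2. RELB, a subunit of NF-kB, was at 12.0, 12.2 and 2.84 CPM with ephrin-B1 siRNA and 4.27, 3.15 and 2.72 CPM in Ctrl. The 13 mitochondrially encoded genes had a median log2 fold change of 0.28, with 11 above 0 none called with or without the block or in DESeq2, and 0 at an unadjusted p under 0.05. SLC1A3, a glutamate transporter of astrocytes, was at 11, 6.66 and 7.12 CPM with ephrin-B1 siRNA and 17.4, 15.7 and 15.5 CPM in Ctrl (−0.97, adjusted p = 0.0259, and on omissions up to 0.136, without ephrin-B1 siRNA replicate 3). SOX9 and SLC1A3 belong to the 7 astrocyte markers tested, of which 3 had a positive and 4 a negative log2 fold change. Under the block none of the 7 rose and 3 fell (42.9%, against 7.06% of all genes). In the blocked test 1 fell without replicate 3 and 0 with the length offset.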
